A study of Mus musculus with 21 samples.

Results

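Megakaryocyte-erythroid progenitors (MEP) of mice that carry S211I together with P216L in Etv6 (the double mutant, n = 3 libraries) were set against MEP of wild-type mice (WT, n = 2). These 5 libraries are all those of the series labelled MEP with the double-mutant or the WT genotype, of 21 libraries in all. MEP libraries with P216L alone (n = 3) and S211I alone (n = 2) served as further comparisons. The cells were sorted from bone marrow by flow cytometry, total RNA was extracted with NucleoSpin RNA XS, and libraries were made by SMART-Seq v4 Ultra Low Input chemistry, which amplifies cDNA from few cells. Titles write the first change as S211I and the genotype field writes P211I, and the title form is used here. The WT libraries carry replicate numbers 1 and 3. The labels used here give neither age, sex nor zygosity, and leave it unsaid whether the libraries came from different mice, so p-values measure the spread between these samples, which may be technical.

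Etv6 encodes a transcription factor of the ETS family that represses its targets by recruiting co-repressors, and ETS factors bind DNA around a GGAA core. The series title describes a germline change in ETV6 that creates a nuclear export signal, a short peptide read by the exportin Xpo1. MEP are bone marrow progenitors that give rise to red cells and to platelet-forming megakaryocytes. In people, inherited ETV6 changes are known for low platelet counts and a risk of leukemia.

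Between double-mutant and WT MEP, 11 genes passed an adjusted p of 0.05 (edgeR quasi-likelihood test, Benjamini-Hochberg), of 10773 genes tested, which is 0.102%. In the double mutant 8 were lower (0.0743% of genes tested): Mbd2, Ybx3, Cul3, Qk, Ppp2cb, Cyhr1, Znrf2 and Smad4. The other 3 were higher (0.0278%): Ccnd1, Alox5 and Hexa. The decreases were between 1.85-fold and 2.37-fold, and the increases between 2.35-fold and 6.77-fold. At an unadjusted p of 0.05, 565 genes passed (5.24%). The median log2 fold change over all genes tested was 0.01. For each of the 11 genes, all 3 double-mutant libraries lay outside the range of the other 7 MEP libraries. The share of all genes so placed was not counted, and the 11 were called from these same double-mutant values. Double-mutant and WT libraries did not overlap in 2673 genes (24.8%), so separation of 3 libraries from 2 is common in these data.

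The libraries held 4805997 to 8667242 counts in the double mutant and 5783934 and 12130358 counts in WT, with 13178 to 15444 genes detected in the double mutant and 14186 and 15914 in WT. The biological coefficient of variation over the 10 MEP libraries was 0.174. Libraries of one group differed by more than counting noise, with a chi-square per degree of freedom of 4.79 to 16.1 over pairs of the same group. On the first principal component, which held 19.4% of the variance, WT replicate 1 and P216L replicate 3 stood apart from the rest. All levels below are CPM (each gene's count scaled to a common library size, here corrected by TMM), and fold changes are log2, double mutant minus WT, with their standard error (SE).

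**Figure D1:**
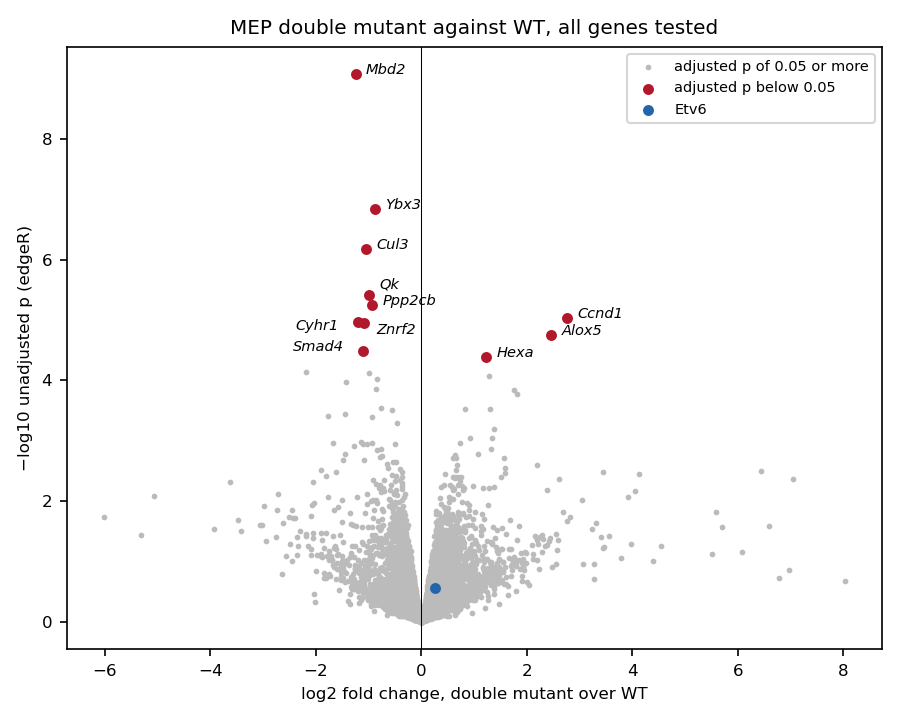
Log2 fold change of double mutant over WT (horizontal axis) against −log10 of the unadjusted p (vertical axis) for 10773 genes in MEP. Red points are the 11 genes past an adjusted p of 0.05, named, with 8 at negative and 3 at positive fold changes, and the blue point is Etv6.

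Mbd2, Ybx3 and Qk, which encode proteins that bind DNA or RNA, fell. Mbd2 encodes a protein that binds methylated CpG and recruits a deacetylase complex. Its level was 210, 174 and 213 CPM in the double mutant, against 457 and 485 CPM in WT. Every double-mutant library was below WT by a wide margin, and the fold change was −1.25 ± 0.12 (edgeR, adjusted p = 9.12e-06), or 2.37-fold lower. Ybx3 encodes a cold-shock domain protein that binds RNA and DNA. It was the most abundant gene of the 11 in CPM, which does not account for transcript length. Its level was 965, 739 and 804 CPM in the double mutant, against 1584.5 and 1505 CPM in WT. The groups did not overlap, and the fold change was −0.89 ± 0.11 (edgeR, adjusted p = 0.000783). Qk encodes quaking, an RNA-binding protein of splicing and mRNA stability. Its level was 65.6, 64.3 and 63.9 CPM in the double mutant, against 123 and 134 CPM in WT. The 3 double-mutant values were nearly equal and about 1.99-fold lower than WT, with a fold change of −0.99 ± 0.16 (edgeR, adjusted p = 0.0102).

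Cul3, Znrf2 and Ppp2cb, a pair of ubiquitin ligase genes and a phosphatase gene, also fell. Cul3 encodes the scaffold of a family of ubiquitin ligases that take their substrates through BTB-domain adaptors. Its level was 77.5, 77.8 and 79.2 CPM in the double mutant, against 141 and 180 CPM in WT. The double-mutant values spread far less than the WT values, and the fold change was −1.04 ± 0.15 (edgeR, adjusted p = 0.00236). Znrf2 encodes a membrane-associated RING ubiquitin ligase. Its level was 28.0, 27.9 and 26.9 CPM in the double mutant, against 48.7 and 68.4 CPM in WT. The groups did not overlap although WT varied, and the fold change was −1.09 ± 0.19 (edgeR, adjusted p = 0.0151). Ppp2cb encodes the beta form of the catalytic subunit of the phosphatase PP2A. Its level was 66.5, 52.3 and 58.6 CPM in the double mutant, against 108 and 117 CPM in WT, a fold change of −0.93 ± 0.15 (edgeR, adjusted p = 0.012). The highest double-mutant library remained well below the lower WT library.

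Smad4 encodes the shared partner of the Smad proteins that carry TGF-beta and BMP signals to the nucleus. Its level was 18.7, 19.1 and 16.9 CPM in the double mutant, against 44.4 and 34.2 CPM in WT, a fold change of −1.10 ± 0.21 (edgeR, adjusted p = 0.0345). Cyhr1 encodes a cysteine- and histidine-rich protein. Its level was 37.2, 24.0 and 35.7 CPM in the double mutant, against 76.7 and 71.0 CPM in WT. Neither gene's groups overlapped, and the Cyhr1 fold change was −1.20 ± 0.21 (edgeR, adjusted p = 0.0151).

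The genes that rose were at low or moderate levels in WT. Ccnd1 encodes cyclin D1, which activates the kinases Cdk4 and Cdk6 at entry into the cell cycle. Its level was 14.3, 21.1 and 25.2 CPM in the double mutant, against 4.07 and 2.15 CPM in WT. The fold change was 2.76 ± 0.47 (edgeR, adjusted p = 0.0151), 6.77-fold higher and the largest of the 11, with a spread within the double mutant wider than the whole WT level. Alox5 encodes the lipoxygenase that starts leukotriene synthesis. Its level was 16.2, 13.4 and 13.2 CPM in the double mutant, against 1.59 and 3.31 CPM in WT, a fold change of 2.46 ± 0.44 (edgeR, adjusted p = 0.0215). The double-mutant values were close together and none came near WT. Hexa encodes the alpha subunit of the lysosomal enzyme hexosaminidase A. Its level was 59.0, 68.3 and 52.4 CPM in the double mutant, against 17.5 and 32.6 CPM in WT, a fold change of 1.23 ± 0.24 (edgeR, adjusted p = 0.0403).

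**Figure D2:**
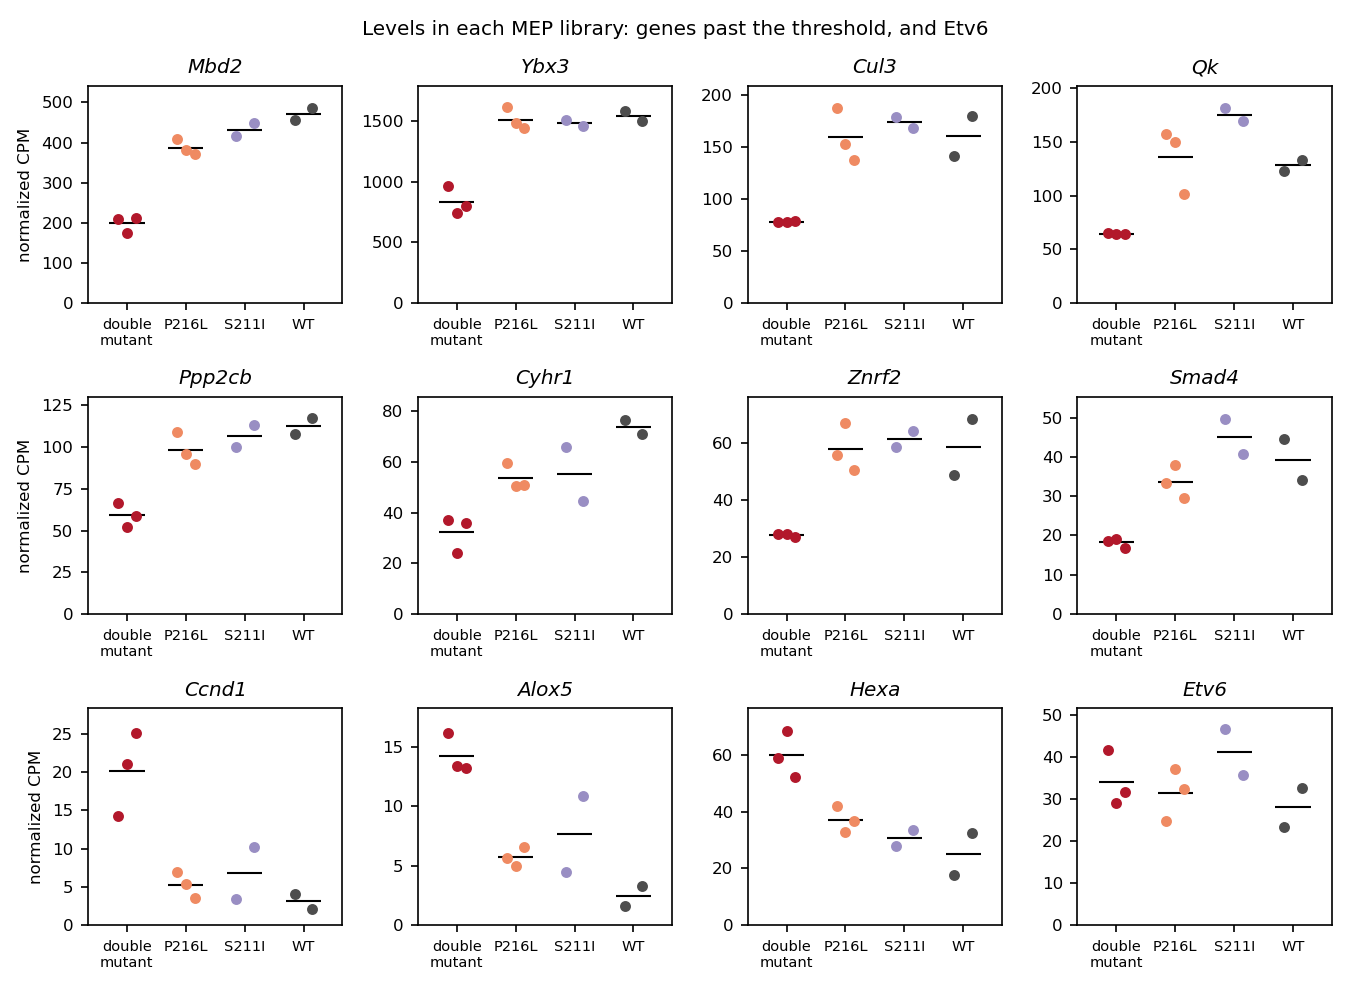
Level in CPM (vertical axes, linear from 0, one panel a gene) of the 11 genes past an adjusted p of 0.05 in each MEP library, with double mutant, P216L, S211I and WT from left to right; points are libraries and bars group means, and a last panel shows Etv6. The double-mutant points lie below all others for 8 genes and above all others for 3, and overlap the others for Etv6.

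Mbd2 and Ybx3 passed the threshold in all 11 alternatives tried. Each of the other 9 lost its call in at least 1 alternative that left out a library, and all 11 kept their direction throughout. Without WT replicate 3, only Mbd2, Ybx3 and Hexa of the 11 passed (edgeR, adjusted p = 0.000885, 0.0151 and 0.0151), and the adjusted p was 0.0821 for Smad4 and Alox5, 0.0878 for Cyhr1, 0.0955 for Cul3, 0.105 for Qk, 0.13 for Ppp2cb, 0.184 for Ccnd1 and 0.257 for Znrf2. Without WT replicate 1, the adjusted p was 0.0583 for Ppp2cb, 0.214 for Cyhr1, 0.385 for Alox5, 0.578 for Smad4 and 0.85 for Hexa. Without double-mutant replicate 2 it was 0.0858 for Qk, between 0.12 and 0.156 for Ppp2cb, Cyhr1, Znrf2, Smad4, Ccnd1 and Alox5, and 0.299 for Hexa. Without double-mutant replicate 1 it was 0.1 for Znrf2, 0.144 for Alox5 and 0.149 for Smad4 and Hexa, and without replicate 3 it was 0.0706 for Znrf2, 0.15 for Smad4, 0.0717 for Ccnd1, 0.059 for Alox5 and 0.0565 for Hexa. The count of genes past the threshold was 7, 3 and 11 without double-mutant replicates 1, 2 and 3, and 7 and 5 without WT replicates 1 and 3.

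RefSeq promoters of GRCm38.p6 (250 bases before to 50 after the start) are given for 6 of the 11 genes: Ybx3, Cul3, Qk, Znrf2, Alox5 and Hexa. Promoters of Mbd2 and Smad4 are not reported here, and none was found for Ppp2cb, Ccnd1 and Cyhr1. The windows of the 4 genes among them that were lower in the double mutant are shown so that their ETS-type cores can be seen together, 5′ to 3′ on the gene's strand, with GGAA or its reverse complement TTCC in capitals.
Ybx3, chr6:131388401-131388700, minus strand.
Ybx3: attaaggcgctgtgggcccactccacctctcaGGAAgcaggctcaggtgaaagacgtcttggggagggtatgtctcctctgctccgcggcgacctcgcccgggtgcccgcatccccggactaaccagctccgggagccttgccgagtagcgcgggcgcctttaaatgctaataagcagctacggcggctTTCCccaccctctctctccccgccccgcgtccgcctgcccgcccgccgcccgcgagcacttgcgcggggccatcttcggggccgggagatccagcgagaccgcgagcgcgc
Cul3, chr1:80340641-80340940, minus strand.
Cul3: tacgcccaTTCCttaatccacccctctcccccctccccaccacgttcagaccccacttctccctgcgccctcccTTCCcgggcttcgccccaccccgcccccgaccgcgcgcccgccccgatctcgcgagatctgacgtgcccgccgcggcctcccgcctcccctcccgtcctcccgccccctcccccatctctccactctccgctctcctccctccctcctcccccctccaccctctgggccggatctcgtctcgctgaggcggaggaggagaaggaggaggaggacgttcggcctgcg
Qk, chr17:10319312-10319611, minus strand.
Qk: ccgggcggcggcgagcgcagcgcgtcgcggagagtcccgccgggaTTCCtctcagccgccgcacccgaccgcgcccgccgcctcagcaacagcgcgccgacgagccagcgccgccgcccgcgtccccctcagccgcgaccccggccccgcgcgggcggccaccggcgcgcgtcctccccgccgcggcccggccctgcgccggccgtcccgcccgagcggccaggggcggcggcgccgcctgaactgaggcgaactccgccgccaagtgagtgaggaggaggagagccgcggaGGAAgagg
Znrf2, chr6:54816666-54816965, plus strand.
Znrf2: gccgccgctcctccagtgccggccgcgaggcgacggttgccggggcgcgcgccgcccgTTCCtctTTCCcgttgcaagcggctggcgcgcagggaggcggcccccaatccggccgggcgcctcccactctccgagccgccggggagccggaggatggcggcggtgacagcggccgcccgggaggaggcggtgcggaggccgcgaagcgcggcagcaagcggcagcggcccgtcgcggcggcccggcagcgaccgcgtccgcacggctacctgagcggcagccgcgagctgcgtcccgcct
Each of these windows held 2 cores, and those of Alox5 and Hexa held 3, where the median over promoters of tested genes was 3. A core is present in 95.8% of 11133 promoters of tested genes, so its presence sets no promoter apart. The longer ETS-type word CGGAAG, read on both strands (CTTCCG on the other) and containing the core, was in 0 of the 6 windows, in 33.2% of promoters of tested genes and in 16.9% of all 32851 promoters. These windows were rich in G and C, at 69% for Ybx3, 72.3% for Cul3, 81.7% for Qk and 80% for Znrf2, beside a median of 60.7% and a 90th percentile of 73% over promoters of tested genes. Alox5 and Hexa were at 55.7% and 53.3%.

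In the annotation of GRCm38.p6, Ybx3, Znrf2 and Alox5 lie on chromosome 6, as does Etv6 itself. That is 3 of the 11 genes, where 4.79% of tested genes (516) are on this chromosome. Counted in protein-coding genes, 38 lie between Etv6 and Ybx3, 254 between Etv6 and Alox5 and 660 between Etv6 and Znrf2. Of the 10 protein-coding genes on each side of Etv6, 10 were tested and 0 passed, and of the 50 on each side 24 were tested and only Ybx3 passed.

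Etv6 itself had 41.8, 29.0 and 31.6 CPM in the double mutant, against 23.4 and 32.7 CPM in WT, a fold change of 0.26 ± 0.24 (edgeR, adjusted p = 0.999). The ranges overlapped. A count per gene does not read the amino acid changes, so it is no check of the genotype labels.

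Each single mutant was also fitted against WT, with the same WT libraries. In neither did any gene pass an adjusted p of 0.05 (edgeR, 0%), with 552 genes (5.12%) for P216L and 511 (4.74%) for S211I at an unadjusted p of 0.05. For Mbd2 the single-mutant levels were 409, 381 and 373 CPM in P216L and 416 and 449 CPM in S211I, which is near WT rather than near the double mutant. Ybx3 had 1614, 1486 and 1441 CPM in P216L and 1508.5 and 1457 CPM in S211I. Cul3 had 188, 153 and 137 CPM in P216L and 179 and 168 CPM in S211I. For Ybx3 and Cul3 the single-mutant and WT levels were interleaved, while every single-mutant level of Mbd2 lay below both WT libraries. In P216L the fold changes from WT were −0.28 ± 0.12, −0.03 ± 0.11 and −0.01 ± 0.15 for Mbd2, Ybx3 and Cul3 in that order. In S211I they were −0.12 ± 0.13, −0.06 ± 0.13 and 0.11 ± 0.16. Ccnd1 stood at 6.94, 5.39 and 3.57 CPM in P216L and 3.35 and 10.2 CPM in S211I, with fold changes from WT of 0.87 ± 0.47 and 1.18 ± 0.51. Alox5 stood at 5.68, 4.94 and 6.54 CPM in P216L and 4.47 and 10.9 CPM in S211I, with fold changes from WT of 1.13 ± 0.44 and 1.57 ± 0.47. Both genes thus had single-mutant means between those of the double mutant and WT, as did Mbd2, Ybx3, Ppp2cb, Cyhr1 and Hexa. Means in the double mutant, P216L, S211I and WT were 59.9, 37.1, 30.5 and 25.1 CPM for Hexa. They were 32.3, 53.6, 55.2 and 73.9 CPM for Cyhr1, and 59.1, 98.3, 107 and 112.5 CPM for Ppp2cb. No single-mutant difference from WT passed the test.

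Against P216L, 12 genes passed the threshold in the double mutant (edgeR, 0.111%), 11 lower (0.102%) and 1 higher (0.00928%), with 460 genes (4.27%) at an unadjusted p of 0.05. Against S211I, 15 passed (0.139%), all lower, with 821 genes (7.62%) at an unadjusted p of 0.05. These comparisons share the double-mutant libraries with the comparison to WT, so their calls are not independent of it. Mbd2, Ybx3, Cul3, Qk, Ppp2cb and Znrf2 were past the threshold against WT and against both single mutants. Mbd2 differed by −0.96 ± 0.11 from P216L and by −1.12 ± 0.12 from S211I, Cul3 by −1.03 ± 0.14 and −1.15 ± 0.15, and Znrf2 by −1.07 ± 0.18 and −1.15 ± 0.19. Ybx3 differed by −0.86 ± 0.10 and −0.83 ± 0.11, and Ppp2cb by −0.74 ± 0.14 and −0.86 ± 0.16, with the highest adjusted p of these genes (edgeR, 0.04) for Ppp2cb against P216L. Smad4 passed against S211I (−1.30 ± 0.21; edgeR, adjusted p = 0.0081) and had −0.89 ± 0.19 against P216L (edgeR, adjusted p = 0.0938). Against P216L and S211I, Ccnd1 had differences of 1.89 ± 0.39 and 1.58 ± 0.44, Alox5 1.32 ± 0.37 and 0.89 ± 0.41, Hexa 0.69 ± 0.21 and 0.97 ± 0.24, and Cyhr1 −0.74 ± 0.19 and −0.78 ± 0.21, none past the threshold. The count of genes was 5 to 20 against P216L and 4 to 8 against S211I when 1 library was left out, with the highest without P216L replicate 3 and the fall to 4 without double-mutant replicates 1 or 2 or S211I replicate 1.

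**Figure D3:**
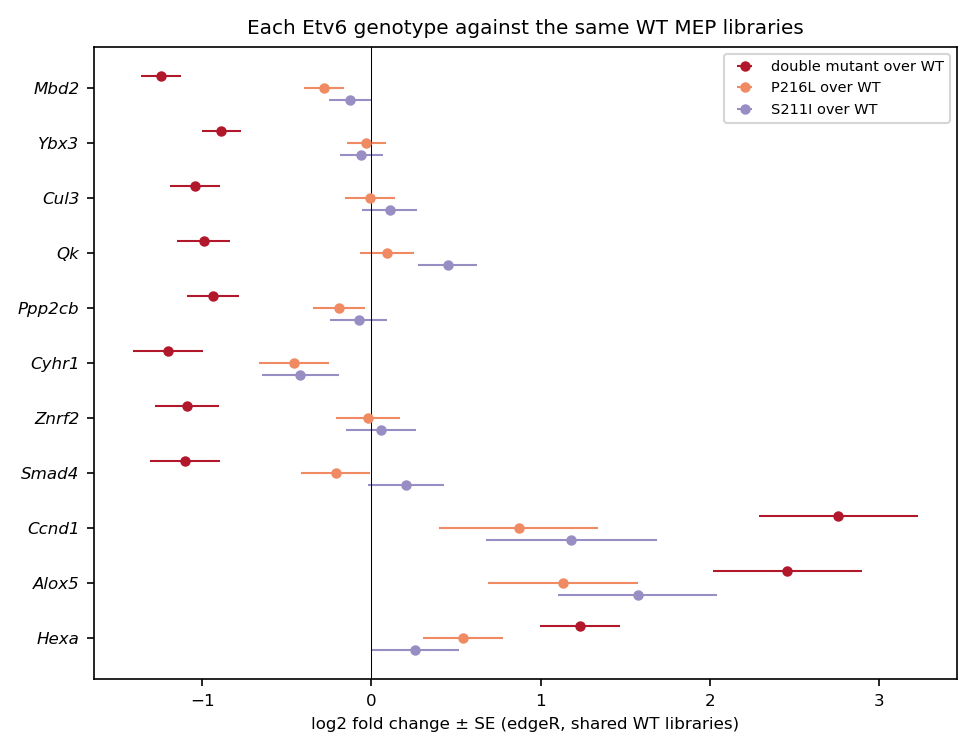
Log2 fold change from WT (horizontal axis) of the 11 genes in the double mutant, P216L and S211I, with bars of 1 SE; all share the same WT libraries. The double-mutant points lie farthest from 0 for all 11 genes, while those of the single mutants lie near 0 for Ybx3, Cul3, Znrf2 and Ppp2cb.

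A test of the double mutant against the sum of the P216L and S211I changes asks whether both changes together gave more or less than their separate log2 changes added. A single gene passed (edgeR, 0.00928%; 608 genes, 5.64%, at an unadjusted p of 0.05): Qk, with a difference of −1.54 ± 0.23 (adjusted p = 0.0135). Its level was 65.6, 64.3 and 63.9 CPM in the double mutant, 157, 150 and 102 CPM in P216L, 181 and 170 CPM in S211I and 123 and 134 CPM in WT. The fold change from WT was 0.09 ± 0.16 in P216L and 0.45 ± 0.17 in S211I, neither past the threshold. The adjusted p was above 0.05 without double-mutant replicate 2 (0.058) or 3 (0.057), P216L replicate 1 (0.114), S211I replicate 1 (0.116) or 2 (0.112), or WT replicate 1 (0.236), and with replicate number as a block (0.0558). Mbd2, Ybx3, Cul3 and Znrf2 had differences from the sum of −0.84 ± 0.17, −0.80 ± 0.16, −1.14 ± 0.21 and −1.13 ± 0.27, with adjusted p between 0.137 and 0.351 (edgeR). In some alternatives Mbd2, Ybx3 and Cul3 did pass. Their adjusted p was 0.0135, 0.00493 and 0.001 without the low-count filter (edgeR). It was 0.0104, 0.00976 and 0.0054 with voom, and 0.00347, 0.00524 and 0.00173 with DESeq2. Znrf2 did not pass in these alternatives.

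Genes of small p that did not pass the threshold against WT included Bex4, Khdrbs3, Rps4l and Rnf17. Bex4 had 69.8, 71.1 and 85.5 CPM in the double mutant, against 41.6 and 21.6 CPM in WT (1.28 ± 0.26; edgeR, adjusted p = 0.0658), and it was the gene that rose against P216L (1.41 ± 0.23; edgeR, adjusted p = 0.0112). Khdrbs3, which encodes an RNA-binding protein of the STAR family to which quaking also belongs, had 3.53, 5.30 and 10.7 CPM in the double mutant, against 26.2 and 34.3 CPM in WT (−2.19 ± 0.41; edgeR, adjusted p = 0.0628). It fell against P216L (−2.23 ± 0.38; edgeR, adjusted p = 0.0368) and against S211I (−2.43 ± 0.41; edgeR, adjusted p = 0.0228). Rnf17 had 10.4, 15.7 and 13.6 CPM in the double mutant, against 2.83 and 4.55 CPM in WT (1.81 ± 0.39; edgeR, adjusted p = 0.0965). Rps4l, a copy of Rps4x with which reads can be shared, had 16.4, 11.5 and 18.8 CPM in the double mutant, against 2.66 and 6.13 CPM in WT (1.76 ± 0.38; edgeR, adjusted p = 0.0876), and its value is uncertain for that reason. Plvap and Arhgap9 had 0.91 ± 0.24 and 0.83 ± 0.19 (edgeR, adjusted p = 0.327 and 0.145). The double-mutant and WT libraries of all these genes did not overlap, as in 24.8% of all genes tested. Such separation adds nothing to their p-values, since small p in the same comparison is why they are named.

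Against the single mutants, further genes were lower in the double mutant. Against P216L these were Serpina3g, Egln1, Plek and Spon2, besides Khdrbs3. Egln1, which encodes the prolyl hydroxylase that marks hypoxia-inducible factors for degradation, had 10.8, 14.6 and 14.2 CPM in the double mutant and 42.2, 35.0 and 22.6 CPM in P216L (−1.34 ± 0.24; edgeR, adjusted p = 0.019), and 22.5 and 23.6 CPM in WT. Plek, which encodes the platelet protein pleckstrin, had 3.32, 1.73 and 4.40 CPM in the double mutant and 13.1, 7.93 and 20.2 CPM in P216L (−2.11 ± 0.41; edgeR, adjusted p = 0.0465), and 6.73 and 12.8 CPM in WT. Against S211I the further genes included Sirt1, Brd1, Tada2b, Nfix and Retreg1. Sirt1, a deacetylase, had 35.9, 30.9 and 31.2 CPM in the double mutant and 67.6 and 58.0 CPM in S211I (−0.95 ± 0.17; edgeR, adjusted p = 0.0228), and 51.7 and 58.1 CPM in WT. None of these genes passed against WT. The double-mutant libraries lay below both WT libraries for every gene named in this paragraph, but these are the double-mutant values that gave the calls. Double-mutant and WT libraries did not overlap, in either direction, in 24.8% of all genes tested.

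Relatives and partners of the called genes, picked after the calls were known, did not pass the test. The 15 genes were Mbd1, Mbd3, Ybx1, Cul1, Cul2, Cul4a, Cul4b, Cul5, Ppp2ca, Znrf1, Smad2, Smad3, Ccnd2, Ccnd3 and Alox5ap. Of these, 0 passed at an adjusted and 0 at an unadjusted p of 0.05 (edgeR), and their fold changes were between −0.22 and 0.15. Mbd3, a sister of Mbd2, averaged 179 ± 19.5 CPM in the double mutant and 161 ± 2.89 CPM in WT (SD, n = 3 and 2). Ybx1, the main cold-shock protein of the family, averaged 1355 ± 39.4 CPM in the double mutant and 1225 ± 147 CPM in WT. Ppp2ca, the alpha form of the PP2A catalytic subunit, averaged 594 ± 20.4 CPM in the double mutant and 621 ± 30.1 CPM in WT. The other D cyclins, Ccnd2 and Ccnd3, averaged 74.5 ± 12.9 and 170 ± 23 CPM in the double mutant and 86.2 ± 12.2 and 190 ± 15.8 CPM in WT, with fold changes of −0.22 ± 0.19 and −0.17 ± 0.15.

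Markers of the labelled cell type were present in both genotypes. Gata1, the master regulator of both lineages, had 512, 489 and 440 CPM in the double mutant, against 450 and 494 CPM in WT. Klf1, the erythroid Krüppel-like factor, had 576, 676 and 656 CPM in the double mutant, against 713 and 641 CPM in WT. Epor, the erythropoietin receptor, had 162, 164 and 194 CPM in the double mutant, against 148 and 164 CPM in WT. These ranges overlapped, with fold changes of 0.02 ± 0.11, −0.09 ± 0.12 and 0.15 ± 0.14, none past the threshold, and Gata1's fold change was −0.02 without double-mutant replicate 1 and −0.04 without WT replicate 1. Of the megakaryocytic markers, Itga2b had 9.97, 7.38 and 12.2 CPM in the double mutant, against 12.2 and 27.2 CPM in WT, and Pf4 had 1.25, 1.5 and 0.825 CPM in the double mutant and 1.59 and 3.31 CPM in WT. Gp5 averaged 68.3 CPM in the double mutant and 60.4 CPM in WT, Gp9 4.86 and 3.50 CPM, and Vwf 7.23 and 7.12 CPM. The sorted cells of both genotypes thus carried Gata1, Klf1 and Epor at higher CPM than these megakaryocytic markers. Itga2b had a fold change of −1.03 ± 0.35 (edgeR, adjusted p = 0.691), while Gp1ba, Gp5, Gp9 and Vwf had 0.31, 0.17, 0.46 and 0.05. Of the 14 tested genes of the megakaryocyte and platelet list, 5 were positive and 9 negative.

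Gene lists of lineage, cell cycle and metabolism, written with earlier results of these data known, held 518 distinct tested genes, of which 1 passed the threshold against WT (0.193%, beside 0.102% of all genes). The gene was Ccnd1, and 31 of the 32 lists held none. The list of erythroid transcription factors had 9 members with positive and 7 with negative fold changes and a median of 0.01. The list of erythroid membrane proteins, carbonic anhydrases and globins had 4 positive and 21 negative members and a median of −0.23, with 0 past the threshold (edgeR; 5 at an unadjusted p of 0.05, 1 higher and 4 lower). Its summed level was 23018 to 24963 CPM in the double mutant and 25912 to 28322 CPM in WT, without overlap. Car1 and Car2 held most of this sum. Their means were 8609 and 9661 CPM in the double mutant and 8969 and 12002 CPM in WT. Car2, one of its members, had 9073, 9870.5 and 10040 CPM in the double mutant, against 12868 and 11135 CPM in WT (−0.31 ± 0.11; edgeR, adjusted p = 0.691). The adult alpha globin genes Hba-a1 and Hba-a2 had fold changes of −0.89 ± 0.39 and −1.04 ± 0.45 and the beta globin gene Hbb-bs −1.35 ± 0.66 (edgeR, adjusted p of 0.961, 0.961 and 0.992). These are near-identical copies between which counting can split reads, so the single values are uncertain.

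Of the heme synthesis genes, 7 were positive and 12 negative with a median of −0.04. Alas2, the erythroid form of the first and rate-limiting enzyme, had 6.65, 6.8 and 6.6 CPM in the double mutant, against 16.5 and 17.8 CPM in WT (−1.36 ± 0.50; edgeR, adjusted p = 0.891). The 14 iron uptake and storage genes were split evenly, 7 and 7, with a median of 0.01. Among 25 megakaryocyte and platelet genes, 14 passed the filter on low counts, with 5 positive and 9 negative members and a median of −0.87, which was −0.36 without WT replicate 3. The list's summed level was 125 to 143 CPM in the double mutant and 127 and 169 CPM in WT, which overlapped. In bulk RNA of sorted cells, fewer cells of a type and less RNA per cell cannot be told apart.

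Cell cycle and growth lists had medians near that of all genes. The medians were −0.09 over 27 S-phase genes, −0.06 over 26 genes of G2 and mitosis, −0.05 over 25 Myc and nucleolar genes and 0.02 over 30 cytosolic ribosomal protein genes. The list of D cyclins, CDKs and their inhibitors held 16 tested genes, 6 positive and 10 negative, with a median of −0.17 and Ccnd1 as the gene that passed. Its kinase partners Cdk4 and Cdk6 had fold changes of 0.02 ± 0.11 and 0.14 ± 0.14. Over 29 nuclear-encoded genes of oxidative phosphorylation the median was 0.03, and over 19 genes of glycolysis and hypoxia it was 0.10, with 16 positive and 3 negative members and a summed level of 7122 to 7582 CPM in the double mutant and 6626 and 6779 CPM in WT. None of these genes but Ccnd1 passed the threshold.

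**Figure D4:**
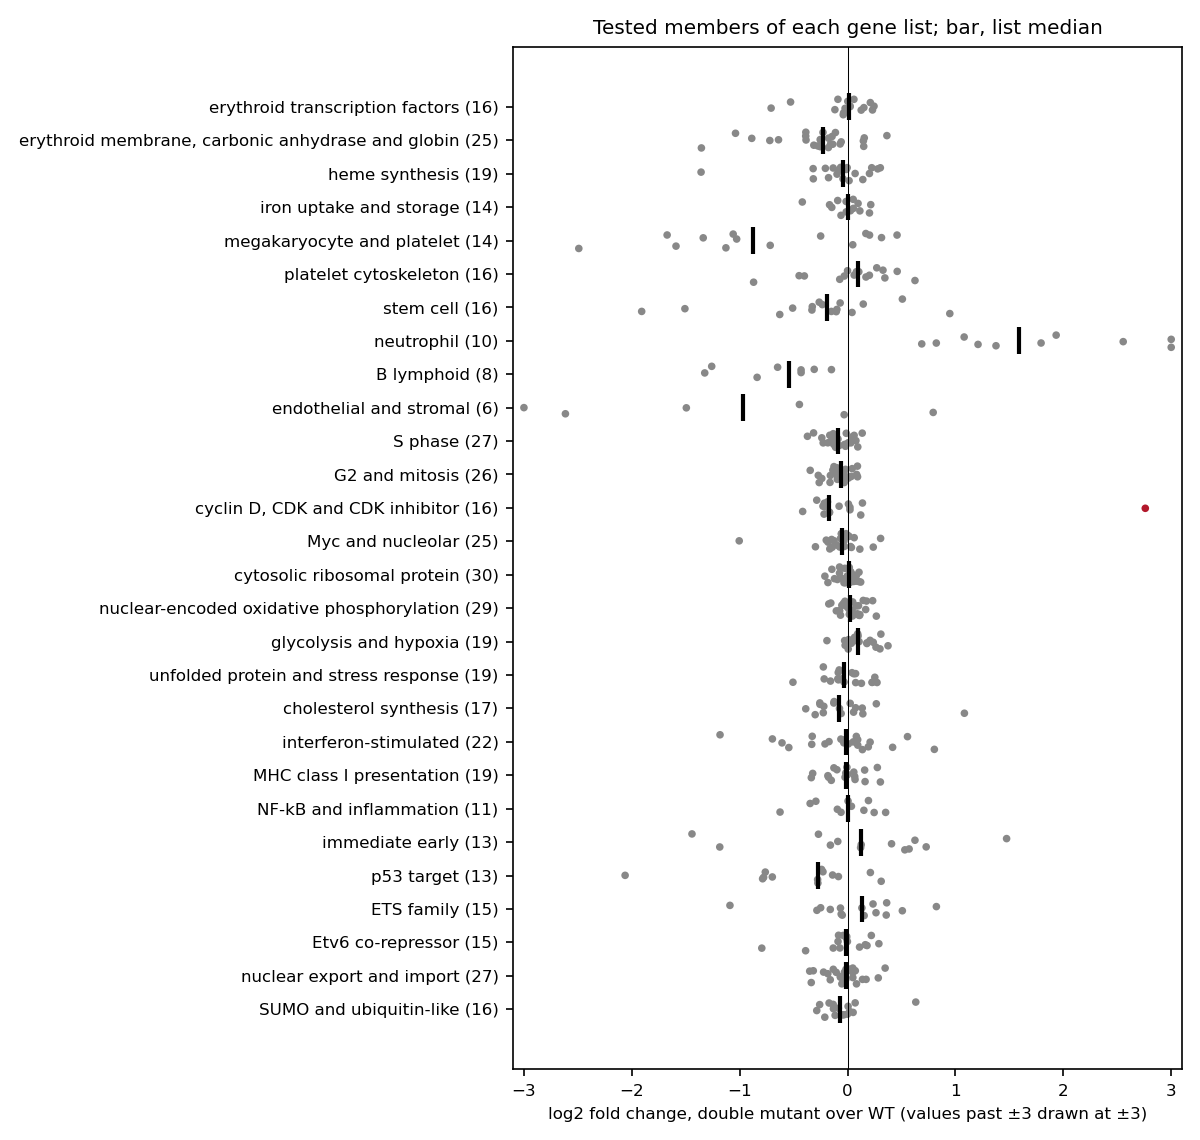
Log2 fold change of double mutant over WT (horizontal axis) for the tested members (points, red where the adjusted p was below 0.05, drawn at the edge past 3 or −3) and the median (bar) of each list with at least 6 tested members, whose number is in brackets. Medians of most lists lie near 0; those of the neutrophil and the endothelial and stromal lists lie farthest from it, at 1.58 and −0.97.

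Lists tied to the Etv6 protein itself held no called gene. Of the 15 tested members of the ETS family, 8 were positive and 7 negative, with a median of 0.13. Ets2 had the smallest p among them, with 0.82 ± 0.35 (edgeR, adjusted p = 0.94). The co-repressor list, 15 genes such as Rcor1 and Hdac3, had 5 positive and 10 negative members and a median of −0.01. The 27 genes of nuclear export and import had a median of −0.02, and Xpo1, the exportin that reads leucine-rich export signals, averaged 290 ± 17.5 CPM in the double mutant and 296 ± 4.79 CPM in WT (SD, n = 3 and 2), with a fold change of −0.03 ± 0.18 that was 0.01 without double-mutant replicate 3. The 16 SUMO and ubiquitin-like genes had a median of −0.07. A list not tied to Etv6, of p53 target genes and the p53 gene Trp53 itself, had 13 tested members. Of these, 2 were positive, Trp53 among them, and 11 negative, with a median of −0.28. Trp53 had 0.31 ± 0.12 and Ccng1 −0.28 ± 0.12, neither past the threshold (edgeR, adjusted p = 0.927 and 0.94).

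Markers of other blood cells were low in every library. Of 15 neutrophil genes, 10 passed the filter, and all 10 had positive fold changes with a median of 1.58, which was 4.78 without WT replicate 3, though 0 passed the threshold (edgeR; 0 at an unadjusted p of 0.05). The filter keeps a gene that reaches its count in enough libraries of any group. WT means of these 10 genes were 0.17 CPM (Elane) to 1.14 CPM (Prtn3), except Mpo at 6.62 CPM. Genes so low in WT may have passed only through mutant libraries. The shared direction and the median can then follow from the filter. The summed level of the neutrophil list was 46.8, 33.6 and 86.5 CPM in the double mutant, 33.4, 45.0 and 175 CPM in P216L, 20.2 and 107 CPM in S211I, and 3.63 and 21.1 CPM in WT. The level was thus higher in every double-mutant library than in WT but highest in a P216L library. Alox5, which neutrophils express, had 16.2, 13.4 and 13.2 CPM in the double mutant and 5.68, 4.94 and 6.54 CPM in P216L. It had 4.47 and 10.9 CPM in S211I and 1.59 and 3.31 CPM in WT, with libraries listed by replicate number as for the sums. The sums and Alox5 did not rank the libraries alike. The P216L library with the highest sum, 175 CPM, had 6.54 CPM of Alox5, less than any double-mutant library. Monocyte and dendritic genes summed to 12.6 to 31.5 CPM in the double mutant and 11.6 and 29.3 CPM in WT, and mast cell, basophil and eosinophil genes to 72.6 to 88.0 CPM in the double mutant and 82.3 and 96.8 CPM in WT. B lymphoid genes summed to 13.7 to 31.4 CPM in the double mutant and 24.6 and 43.7 CPM in WT, with 0 of 8 tested members positive. T and NK cell genes summed to 8.88 to 15.3 CPM in the double mutant and 12.1 and 20.5 CPM in WT. Endothelial and stromal genes summed to 6.77 to 11.7 CPM in the double mutant and 13.1 and 23.9 CPM in WT, without overlap, with Cxcl12 at 0, 0.115 and 0 CPM in the double mutant and 1.06 and 3.15 CPM in WT. The part of these cells in the results was not tested. Y-linked transcripts were present in all libraries, with Eif2s3y at 97.6, 115 and 81.2 CPM in the double mutant and 121 CPM in both WT libraries.

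**Figure D5:**
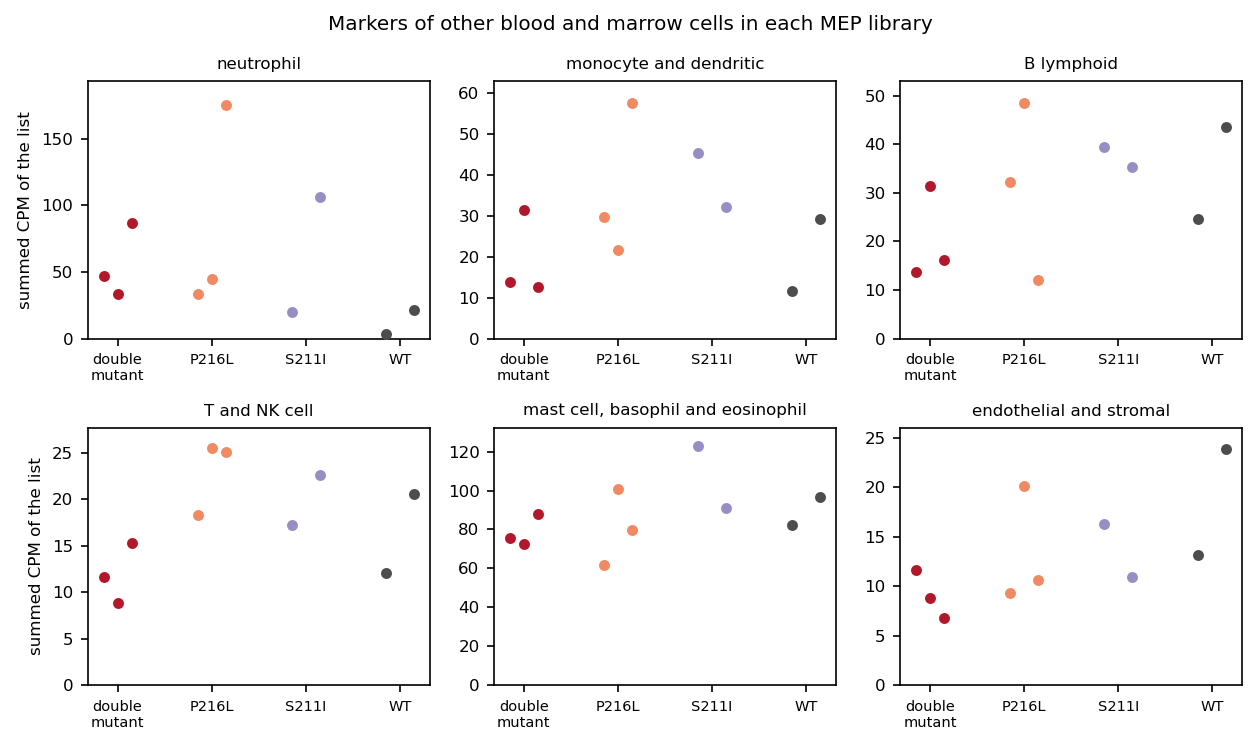
Summed CPM (vertical axes, linear from 0) of 6 lists of markers of other blood and marrow cells in each MEP library, with double mutant, P216L, S211I and WT from left to right; points are libraries. The double-mutant points lie above WT for the neutrophil list and below WT for the endothelial and stromal list, and overlap WT for the other lists.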

How the data were processed

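Low-input RNA-seq of sorted mouse MEP was analysed: 10 libraries in 4 groups, of 21 in the series. The authors deposited estimated counts for Entrez genes; per the submitters' processing notes, FastQC, Salmon and GRCm39 were used, with versions not given in the sources used here. Of the nonzero values in double-mutant and WT libraries, 27.16 to 33.07% were not whole, and all were rounded. Symbols came from the RefSeq annotation of GRCm38.p6 for 30211 of 30519 genes; the other 308 held 0.0436% of MEP counts. That annotation gave names, gene order and promoters, and GRCm39 coordinates were not used. A number of 0 per-sample columns were left out.

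All 10 MEP libraries were fitted together in edgeR 4.0.16 (limma 3.58.1, R 4.3.3): TMM size factors, filterByExpr by group (minimum count 10, minimum total 15), robust quasi-likelihood fits with 6 residual degrees of freedom among samples, and Benjamini-Hochberg adjustment at 0.05 over all genes tested in each comparison. All p-values are two-sided. SE is the size of the log2 fold change over the square root of the F statistic. CPM are counts scaled by the TMM library size. The procedure was tested on simulated data.

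Genes named are Etv6, all genes past the threshold against WT, the 10 of smallest p in each direction with a mean of at least 5 CPM, the 2 of smallest p in each list, defining markers and sex-linked genes; some genes of this rule are not reported here. Relatives of called genes, genes called in other comparisons, and some list members (globins, Mpo-type markers, p53 targets, Xpo1) were chosen after values were seen. Members and lists were chosen with earlier results of these data known. Alternatives were RLE size factors, a fit of every gene with a count, a block for replicate number, voom with quality weights (limma), DESeq2 1.42.0, only the compared groups fitted, and each library left out.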

Additional observations from a re-analysis of the deposited data

Results flagged for a closer look

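Qk differed between the double mutant and the sum of the single-mutant changes by −1.54 ± 0.23 on the log2 scale (edgeR, adjusted p = 0.0135), which is a test of the difference itself. It was lower in 3 of 3 double-mutant libraries than in each of the 7 other MEP libraries, the same values that gave the call. The share of all genes so placed was not counted.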

How the results depend on the processing

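Against WT, 11 genes passed in the double mutant with TMM and 11 with RLE size factors. The count was 40 without the low-count filter (11 higher, 29 lower), 39 with voom (8 and 31), 25 with DESeq2 (8 and 17), 21 with only the compared groups fitted (5 and 16), and 3 to 11 with 1 library left out. Against P216L, where 12 passed, these were 47 without the filter, 34 with voom, 27 with DESeq2 and 5 to 20 with 1 library left out. Against S211I, where 15 passed, they were 51, 33, 28, and 28 with only the compared groups fitted, and 4 to 8 with 1 library left out. For the sum of single-mutant changes, where 1 passed, they were 32 without the filter, 7 with voom, 12 with DESeq2 and 0 to 13 with 1 library left out, highest without WT replicate 3; fitting only the compared groups equals the fit of all MEP libraries there and was not run. The cause was not tested.

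With replicate number as a block, the count was 11 against WT (10 of them the same genes, with Hexa lost at an adjusted p of 0.0781), 9 against P216L, 10 against S211I and 0 against the sum, where Qk had −1.43 (edgeR, adjusted p = 0.0558). Deviations of same-numbered double-mutant and WT libraries correlated at −0.051 and −0.091 across genes. With 2 WT libraries, whose deviations mirror each other, these values cannot show whether same-numbered samples share more than a number.

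Of the named genes against WT, 16 values in 1185 turned sign, none of a called gene. With 1 library left out, the fold change was −0.036 to 0.40 for B2m, −0.043 to 0.39 for Nfkb1, −0.042 to 0.095 for Gata1, −0.15 to 0.0021 for Car1, −0.090 to 0.19 for Kit, −0.49 to 0.79 for Vwf, −0.26 to 0.27 for Ddx3y, −0.35 to 1.11 for Kdm5d and −0.075 to 0.010 for Xpo1. With the replicate block, Kit was at −0.10 and Ddx3y at 0.019. Against the sum of single-mutant changes, Alox5 was −0.93 to 0.54 and Hexa −0.11 to 0.79 with 1 library left out. Of 363 list medians, 308 moved less than the spread between replicates and 55 by more. With 2 WT libraries, changes that miss the threshold are not shown to be absent.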

Other observations

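Other gene groups of the MEP, set against WT in the double mutant, held no gene past the threshold. Of 16 tested stem cell genes, 4 were positive and 12 negative, with a median of −0.19. Mmrn1 and Flt3 were those of smallest p, at −1.91 ± 0.57 and −1.51 ± 0.61 (edgeR, adjusted p = 0.542 and 0.933). The 16 tested genes of the platelet cytoskeleton had a median of 0.09, with Arpc1b at 0.62 ± 0.20 (edgeR, adjusted p = 0.625). Interferon-stimulated genes were split 11 and 11, with a median of −0.01, and 19 genes of MHC class I presentation also had a median of −0.01. Medians were −0.03 over 19 genes of the unfolded protein and stress response, −0.07 over 17 genes of cholesterol synthesis, 0.0043 over 11 genes of NF-kB and inflammation and 0.13 over 13 immediate early genes. Btg2, an immediate early gene that restrains proliferation, had 4.78, 6.11 and 3.85 CPM in the double mutant, against 12 and 14.7 CPM in WT (−1.44 ± 0.34; edgeR, adjusted p = 0.16).

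Of the genes called in MEP, Mbd2, Ybx3, Cul3 and Ccnd1 are given for hematopoietic stem cells (HSC) of the same genotypes. Values are plain CPM over library totals, with no test, and the other called genes are not given. The HSC libraries were shallower, with 369439 to 2250654 counts in the double mutant and 151216 to 480419 in WT. Mbd2 had 371, 160 and 504 CPM in double-mutant HSC, against 126, 290 and 167 CPM in WT HSC. Ybx3 had 805, 273 and 1119 CPM in double-mutant HSC, against 238, 370 and 664 CPM in WT HSC. Cul3 had 126, 106 and 72.4 CPM in double-mutant HSC, against 26.5, 253 and 283 CPM in WT HSC. The ranges overlapped for each of these genes. Ccnd1 had reads in 1 of 3 double-mutant HSC libraries, at 21.7 CPM, and in 1 of 3 WT HSC libraries, at 39.0 CPM.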
